A study of Mus musculus with 6 samples.

Results

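Integrin and laminin genes were compared between breast tumour cells of mice that were sorted into an Elf5-positive and an Elf5-negative fraction. The genes were chosen by symbol alone, as every integrin alpha chain (Itga), every integrin beta chain of the Itgb series and every laminin alpha, beta and gamma chain (Lama, Lamb, Lamc). They numbered 37 of the 52325 genes in the table, 26 integrin genes and 11 laminin genes, and all 37 passed the filter on low counts. The mice were C57BL/6, labelled C3-T; Elf5-GFP, so that GFP, green fluorescent protein, reports the transcription factor Elf5, and both groups shared this genotype. After collagenase and hyaluronidase digestion, antibodies to CD45, CD31 and TER119 served to enrich tumour cells, which were then split by GFP. There were 2 GFP-positive (Elf5-positive) and 4 GFP-negative (Elf5-negative) libraries. The sample titles carry a number and a code, T1 or T2, which the labels do not define. Elf5-positive library 1 shares its title number with Elf5-negative libraries 1 and 2, and Elf5-positive library 2 shares the other number with Elf5-negative libraries 3 and 4. Both Elf5-positive libraries and Elf5-negative libraries 2 and 4 carry the code T2. Whether each library is a separate animal is not stated, and the tests therefore reflect spread among these 6 libraries only, some of which may be technical.

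Laminins are trimers of an alpha, a beta and a gamma chain, and are the main non-collagen network of basement membranes, the sheet on which mammary epithelium rests. Integrins are heterodimers of an alpha and a beta chain that span the cell membrane and bind laminins, collagens, fibronectin or other cells. In the mammary gland the laminin-binding integrins anchor epithelial cells to the basement membrane, and stromal cells carry collagen-binding and fibronectin-binding integrins.

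The libraries held 9106660 counts (Elf5-negative library 4) to 53694884 counts (Elf5-negative library 3). Levels are given as CPM, a gene's count scaled to library size, here with TMM factors that adjust for composition. Elf5 was at 77.7 and 137.0 CPM in the Elf5-positive libraries and at 6.93 to 24.7 CPM in the Elf5-negative ones. The summed level of 18 epithelial markers was 6834 to 9594 CPM in the Elf5-positive libraries and 2523 to 4182 CPM in the Elf5-negative ones, and 10 of the 18 rose. Markers of fibroblasts, which the antibodies do not remove, summed to 1194 to 1552 CPM against 20590 to 55930 CPM, and 13 of 14 fell. Pericyte and smooth muscle markers summed to 107.9 to 109.4 CPM against 478.9 to 1289 CPM, and 5 of 9 fell. Endothelial markers summed to 19.3 to 54.3 CPM against 73.7 to 180.4 CPM, with 3 of 12 lower. Skeletal muscle markers summed to 285.5 and 81.5 CPM in Elf5-negative libraries 1 and 2, and to at most 26.7 CPM in the other 4 libraries. Schwann cell markers summed to 551.8 to 691.2 CPM against 154.8 to 272.0 CPM, with 1 of 8 higher and 1 lower. The lists did not all move the same way, and their part in the results below was not tested. In sorted bulk samples fewer cells of a type and less RNA per cell cannot be told apart.

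Of the 37 genes 5 fell in the Elf5-positive libraries and 0 rose (quasi-likelihood test of edgeR with Benjamini-Hochberg adjustment over all genes, threshold 0.05). The 5 were the collagen-binding integrin chains Itga1 and Itga11 and the laminin chains Lama1, Lama2 and Lamb1. They made up 13.5% of the 37 genes, and among all 20684 genes tested 3.79% were called lower and 0.585% higher. At an unadjusted p under 0.05, 12 of the genes were lower and 1 (Itga8) higher. The share of all genes at that unadjusted p was not computed, so this count has no background to be set against. DESeq2 called 9 lower and 0 higher, where it called 8.52% of all genes lower and 2.11% higher. With limma-voom 6 were lower and 0 higher, where 4.32% of all genes were lower and 0.87% higher. The median log2 fold change, Elf5-positive over Elf5-negative, was -0.74 over the 37 genes, -0.67 over the integrins and -1.27 over the laminins, and 0.05 over all genes tested. In 13 of the 37 genes (35.1%) both Elf5-positive libraries lay below all 4 Elf5-negative ones, where 14.8% of all genes tested did so. In 0 of them both lay above, where 10.9% of all genes did.

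The count of 5 depended on the libraries, as did the count over all genes. It dropped to 1 without Elf5-positive library 2, where the share of all genes called lower dropped to 0.893%, and to 2 without Elf5-negative library 1 (1.23% of all genes). Leaving out Elf5-negative library 2 or 3 gave 3 (2.72% and 1.66% of all genes). Without both Elf5-negative libraries 1 and 2 edgeR called 0 of the genes and 0.372% of all genes lower. At an unadjusted p under 0.05, 7 of the genes were then lower and 0 higher, again with no share of all genes computed. When libraries were instead scaled so that the 18 epithelial markers had the same geometric mean in each, the median over all genes tested moved to -1.38 on the log2 scale. With that scaling 55.9% of all genes and 32 of the 37 genes passed as lower, and the 7 genes with values above 0 lay below 0. Directions given below for genes near 0 therefore hold for the TMM scale.

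**Figure D1:**
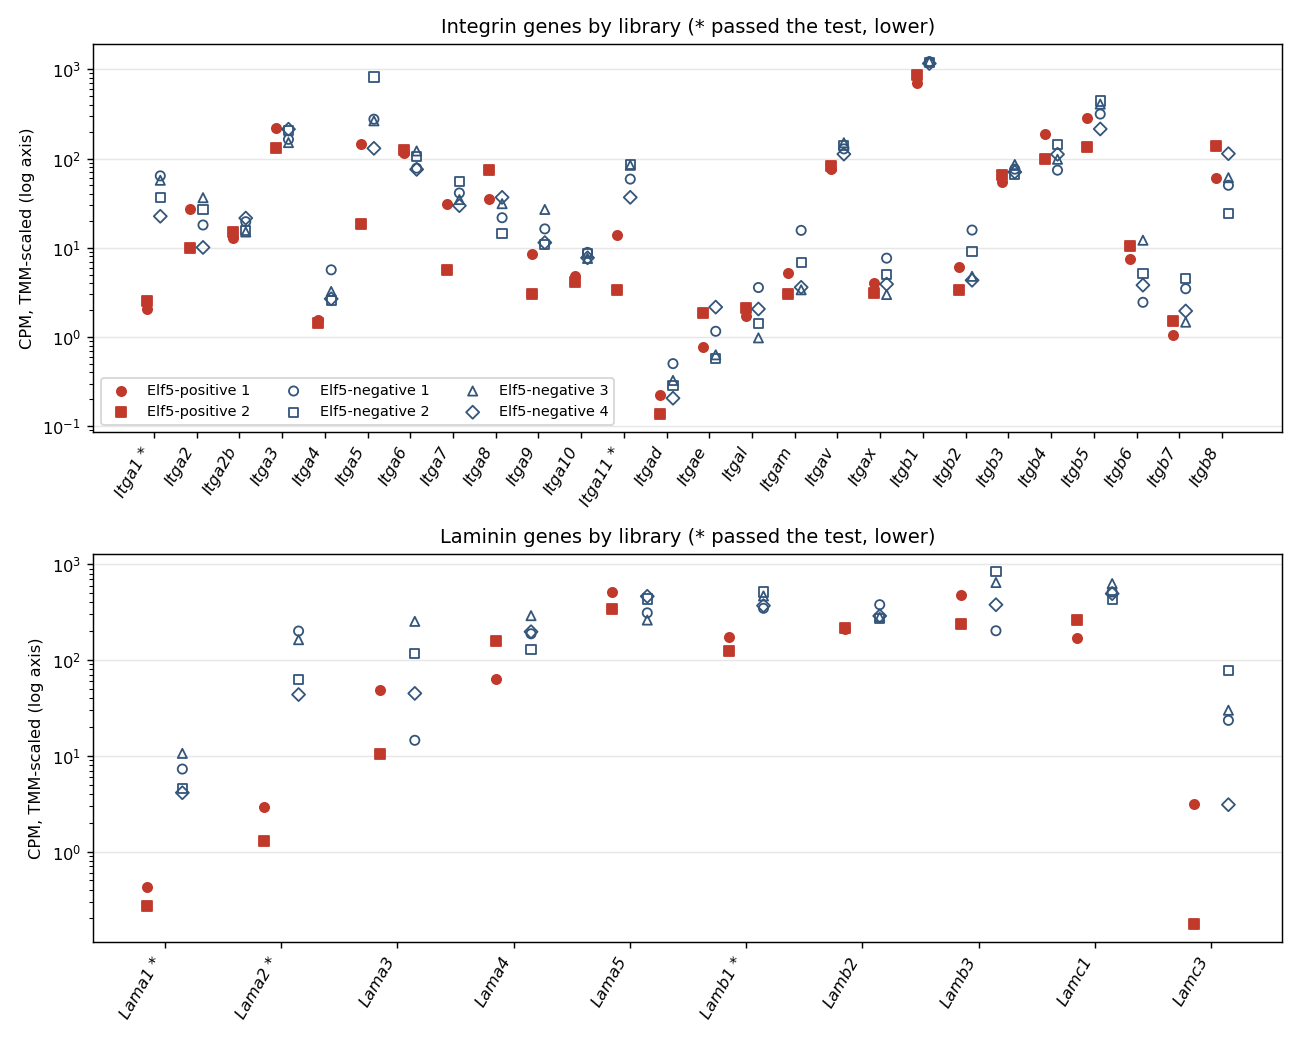
TMM-scaled CPM (log axis) of integrin genes (top) and laminin genes (bottom) in each library, with filled symbols for the 2 Elf5-positive and open symbols for the 4 Elf5-negative libraries. Asterisks mark the 5 genes that passed as lower; Itga1 lay at 2.07 and 2.50 CPM against 22.5 to 63.9 CPM, while Itga3 overlapped.

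The laminin alpha chains moved unequally. The alpha chain sets which receptors a laminin trimer binds. Lama2, the alpha chain of muscle, nerve and stromal basement membranes (minus strand of chromosome 10, 26980036 to 27619758 on GRCm38), had 2.95 and 1.28 CPM in Elf5-positive libraries 1 and 2. In Elf5-negative libraries 1 to 4 it was at 200.9, 62.2, 163.2 and 43.6 CPM. The groups lay far apart, and the T1 libraries held the highest levels. Lama2 differed by -5.80 on the log2 scale (SE 0.87, adjusted p = 0.0148). Without Elf5-positive library 2 it was -5.32 and did not pass (adjusted p = 0.0564).

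Lama1, the alpha chain of embryonic basement membranes (chromosome 17, 67697259 to 67822647), was at 0.427 and 0.271 CPM in the Elf5-positive libraries, from 19 and 14 counts. Elf5-negative libraries 1 to 4 held 7.27, 4.57, 10.6 and 4.11 CPM, all above the Elf5-positive ones. Its log2 fold change was -4.25 (SE 0.64, adjusted p = 0.0148). Lama1 did not pass without Elf5-positive library 2 (adjusted p = 0.0653) or without Elf5-negative library 1 (adjusted p = 0.0507).

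Lama4, the alpha chain of vascular basement membranes, was at 63.0 and 158.4 CPM against 188.1, 129.5, 290.8 and 197.7 CPM. Elf5-positive library 2 lay above Elf5-negative library 2, so the groups overlapped. Lama4 differed by -0.86 on the log2 scale (SE 0.45, adjusted p = 0.398). Lama5, the broadly expressed alpha chain of adult epithelium, was at 508.0 and 337.9 CPM against 311.1, 434.5, 261.7 and 463.1 CPM. Its groups overlapped as well, and it differed by 0.20 on the log2 scale (SE 0.32, adjusted p = 0.825).

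Lama3 and Lamb3 encode chains of laminin-332, the trimer that anchors epithelium to the dermis or stroma through hemidesmosomes. Neither passed. Lama3 was at 48.1 and 10.4 CPM in the Elf5-positive libraries and at 14.5, 116.4, 253.5 and 44.8 CPM in Elf5-negative libraries 1 to 4. Lamb3 was at 482.4 and 237.5 CPM against 202.3, 842.4, 645.1 and 378.3 CPM. In both genes Elf5-negative library 1 held less than the other Elf5-negative libraries, and the groups overlapped. The log2 fold changes of Lama3 and Lamb3 were -1.88 (SE 1.10) and -0.52 (SE 0.57), with adjusted p of 0.473 and 0.734.

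The other beta and gamma chains serve many trimers. Lamb1, the beta chain shared by most laminins outside laminin-332 (chromosome 12, 31265234 to 31329644), was at 172.5 and 125.6 CPM against 347.2, 512.7, 467.6 and 369.8 CPM. Both Elf5-positive libraries held less than any Elf5-negative library. Lamb1 differed by -1.51 on the log2 scale (SE 0.29, adjusted p = 0.0321). This call was lost without Elf5-positive library 1 (adjusted p = 0.0604) or 2 (0.161) and without Elf5-negative library 1 (0.0630), 2 (0.0661) or 3 (0.0861), with log2 fold changes from -1.76 to -1.30. Lamc1, the usual partner gamma chain, was at 168.5 and 259.6 CPM against 513.6, 426.9, 628.6 and 493.6 CPM. Its groups did not overlap, and its log2 fold change of -1.27 (SE 0.30) just missed the threshold in edgeR (adjusted p = 0.0598) and passed with DESeq2 (0.00152) and limma-voom (0.0333).

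Lamb2, the beta chain of neuromuscular and vascular basement membranes, was at 209.2 and 215.0 CPM against 378.5, 270.8, 281.4 and 288.9 CPM. The groups did not overlap, and the log2 fold change was -0.52 (SE 0.24, adjusted p = 0.340). Lamc3, a gamma chain of restricted expression, was at 3.17 and 0.174 CPM against 23.4, 78.1, 29.9 and 3.09 CPM. Elf5-positive library 2 rested on 9 counts, and Elf5-negative library 4 lay below Elf5-positive library 1. Lamc3 differed by -4.34 on the log2 scale (SE 1.49, adjusted p = 0.174).

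Chains of a class were set against each other per length, as CPM per kb of exon sequence, which does not depend on the scaling between libraries. Of the laminin alpha level, Lama5 made up 81.8% and 67.6% in the Elf5-positive libraries and 28.1% to 63.2% in the Elf5-negative ones. Lama2 made up 0.331% and 0.178% against 4.15% to 21.5%. The groups did not overlap in either share. Lamb1 made up 13.9% and 15.1% of the laminin beta level against 23.1% to 27.4%, again with no overlap. Lamb3 made up 58.5% and 42.8% against 23.9% to 57.0%, and its groups overlapped. Lama5 was thus the most abundant alpha chain in both Elf5-positive libraries and in Elf5-negative libraries 1, 2 and 4 (47.7%, 59.6% and 63.2%). Only in Elf5-negative library 3 did it come after Lama4 (29.5%) and Lama3 (28.9%). These shares were described without a test.

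**Figure D2:**
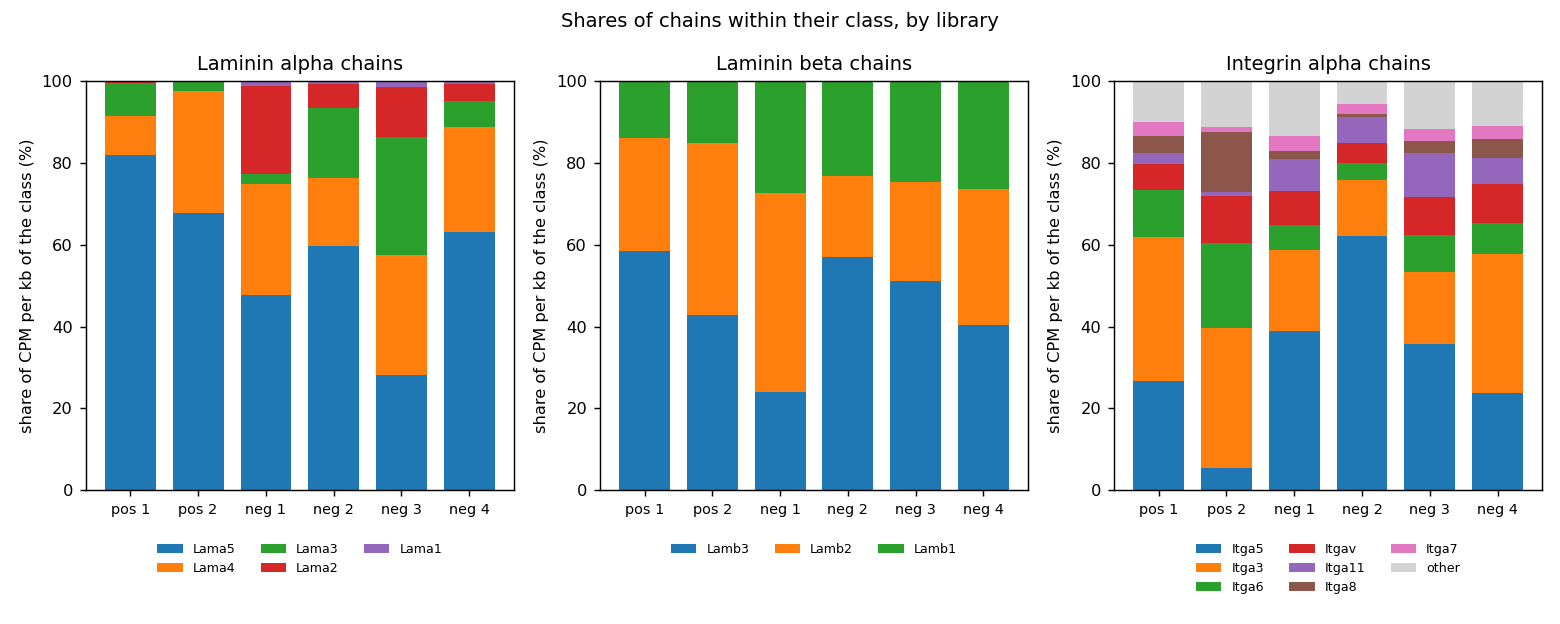
Stacked bars give the share (%) of each chain in the summed CPM per kb of laminin alpha, laminin beta and integrin alpha chains, for Elf5-positive (pos) and Elf5-negative (neg) libraries. Lama2 is too thin to see in the Elf5-positive bars (0.331% and 0.178%) and reaches 21.5% in Elf5-negative library 1; Itga5 spans 5.53% to 62.1%.

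Collagen-binding alpha chains pair with Itgb1. Itga1, which binds basement membrane and fibrillar collagens (chromosome 13, 114953096 to 115101964), was at 2.07 and 2.50 CPM in the Elf5-positive libraries. Elf5-negative libraries 1 to 4 held 63.9, 36.8, 57.1 and 22.5 CPM, all far above. Itga1 differed by -4.30 on the log2 scale (SE 0.52, adjusted p = 0.0114). Itga1 passed without each single library in turn. Gm49395, a gene on the same strand, shares exonic sequence with Itga1, so reads may be split between them; it held 9.30% as many counts over all libraries.

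Itga11, a receptor of fibrillar collagen on fibroblasts (chromosome 9, 62677826 to 62783982), was at 13.9 and 3.39 CPM against 58.8, 85.7, 84.0 and 36.7 CPM. The groups did not overlap, and the Elf5-positive libraries differed 4.09-fold. The log2 fold change of Itga11 was -2.95 (SE 0.64, adjusted p = 0.0458). It did not pass without Elf5-positive library 2 (adjusted p = 0.0865) or Elf5-negative library 1 (0.105), 2 (0.0796) or 3 (0.118).

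Itga10, the cartilage-type collagen receptor chain, was at 4.79 and 4.14 CPM against 7.59 to 8.86 CPM and did not overlap (log2 fold change -0.88, SE 0.33, adjusted p = 0.215). Itga2, the collagen receptor chain of epithelium and platelets, was at 27.5 and 9.91 CPM against 18.0, 26.9, 36.4 and 10.1 CPM. Its groups overlapped (log2 fold change -0.30, SE 0.56, adjusted p = 0.858). Fibroblast markers, which include fibrillar collagens, were lower in the same libraries as Itga1 and Itga11, as were pericyte and smooth muscle markers. The median log2 fold change was -4.64 over the fibroblast list, -4.08 over the pericyte and smooth muscle list and -1.21 over the endothelial list. Their part in the levels of Itga1 and Itga11 was not tested.

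RefSeq promoter windows (build GRCm38.p6) were at hand for 23 of the 37 genes, 4 of them among the 5 that passed. They are shown because these 4 genes were lower together. Each run gives up to 250 bases before the RefSeq start, 5′ to 3′ on the gene's strand, stopped at the first exonic base. Capitals mark GGAA or its reverse complement TTCC, the core bound by the ETS family to which Elf5 belongs.
Itga1, chr13:115101965-115102214, minus strand: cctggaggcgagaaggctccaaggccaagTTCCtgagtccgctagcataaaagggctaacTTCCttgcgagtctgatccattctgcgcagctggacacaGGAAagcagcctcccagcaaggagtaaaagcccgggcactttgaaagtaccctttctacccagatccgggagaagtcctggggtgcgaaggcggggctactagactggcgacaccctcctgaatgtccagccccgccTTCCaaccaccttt
Itga11, chr9:62677605-62677825, plus strand: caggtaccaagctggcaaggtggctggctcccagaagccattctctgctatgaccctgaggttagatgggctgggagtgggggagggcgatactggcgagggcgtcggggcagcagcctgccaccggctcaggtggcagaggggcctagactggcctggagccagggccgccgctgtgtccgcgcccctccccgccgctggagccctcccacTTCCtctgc
Lama2, chr10:27616943-27617192, minus strand: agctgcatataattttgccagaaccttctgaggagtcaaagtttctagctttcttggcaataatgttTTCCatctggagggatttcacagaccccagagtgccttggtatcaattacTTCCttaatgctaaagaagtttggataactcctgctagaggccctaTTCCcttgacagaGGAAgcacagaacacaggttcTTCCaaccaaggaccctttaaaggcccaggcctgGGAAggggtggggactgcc
Lamb1, chr12:31265043-31265233, plus strand: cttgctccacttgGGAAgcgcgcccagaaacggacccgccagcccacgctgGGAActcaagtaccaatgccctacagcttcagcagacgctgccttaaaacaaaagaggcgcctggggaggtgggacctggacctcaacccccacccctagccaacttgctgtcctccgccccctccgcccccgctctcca

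The Lama2 window lay 2816 bases inside the longest GENCODE gene model, outside its exons. The core GGAA, searched on both strands, stood 4 times in the Itga1 window, 1 time in Itga11, 6 times in Lama2 and 2 times in Lamb1. It was present in 93.4% of the 250-base windows of all 32851 promoters. Those windows were not cut at exons, whereas the Itga11 and Lamb1 windows were cut to 221 and 191 bases. The shares of all promoters given here are therefore not matched in length to these windows. The longer ETS form CCGGAAG, which contains the core, was in 0 of the 4 windows and in 6.91% of all promoters. The GC box GGGCGG stood 2 times in Lamb1 and was absent from the other 3 windows (32.7% of all promoters). The E-box CACCTG, bound by Snail and Zeb factors, stood 1 time in Itga11 (17.2% of all promoters). The AP-1 motif TGANTCA was in none of these 4 windows (6.75% of all promoters). These are matches of letters only.

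Laminin-binding integrins join cells to the basement membrane, and the chains of this class did not pass. Itga6, which pairs with Itgb4 in hemidesmosomes or with Itgb1, was at 114.0 and 125.6 CPM against 78.0, 105.6, 121.6 and 75.6 CPM. Itgb4 was at 186.2 and 98.5 CPM against 74.0, 143.8, 98.1 and 111.6 CPM. Itga3, the other main epithelial laminin receptor chain, was at 220.5 and 131.2 CPM against 164.0, 207.5, 150.9 and 213.1 CPM. The groups overlapped in all 3 genes. The log2 fold changes were 0.33 (SE 0.26) for Itga6, 0.41 (SE 0.34) for Itgb4 and -0.06 (SE 0.29) for Itga3, with adjusted p of 0.613, 0.636 and 0.950. Scaled to the epithelial markers Itga6, Itgb4 and Itga3 were at -1.06, -1.05 and -1.54 and passed as lower, which is near the median of all genes on that scale. Itga7, the laminin receptor chain of muscle, was at 30.7 and 5.57 CPM against 41.1, 55.4, 34.7 and 29.6 CPM. Only Elf5-positive library 2 lay apart, and the log2 fold change was -1.15 (SE 0.61, adjusted p = 0.418). Without Elf5-positive library 1 Itga7 passed as lower (log2 fold change -2.85, adjusted p = 0.0262).

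Itgb1, the beta chain shared by most of the alpha chains here, was at 711.1 and 854.6 CPM against 1219, 1198, 1220 and 1162 CPM. The Elf5-negative libraries lay close together, and the groups did not overlap. The log2 fold change of Itgb1 was -0.62 (SE 0.25) and did not pass (adjusted p = 0.269). Per length Itgb1 made up 58.4% and 72.6% of the integrin beta level in the Elf5-positive libraries and 64.2% to 73.8% in the others.

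Receptors of the RGD peptide motif bind fibronectin, vitronectin and latent TGF-beta. Itga5, the fibronectin receptor chain, was at 143.7 and 18.3 CPM against 276.1, 819.8, 264.6 and 130.1 CPM. Elf5-positive library 1 lay above Elf5-negative library 4, and the Elf5-positive libraries differed 7.83-fold. The log2 fold change of Itga5 was -2.20 (SE 0.98, adjusted p = 0.311). Per length Itga5 was 26.6% and 5.53% of the integrin alpha level in the Elf5-positive libraries, and 23.9% to 62.1% in the Elf5-negative ones. Itgav, the alpha chain of vitronectin and latent TGF-beta receptors, was at 76.3 and 82.4 CPM against 128.3, 140.3, 150.3 and 112.1 CPM. Its groups did not overlap, and its log2 fold change of -0.74 (SE 0.22) did not pass in edgeR (adjusted p = 0.118) but passed with DESeq2 (0.0412).

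Itga8, a nephronectin and fibronectin receptor chain, was at 34.9 and 73.6 CPM against 21.7, 14.4, 31.2 and 36.7 CPM. Elf5-positive library 1 lay below Elf5-negative library 4, so the groups overlapped. The log2 fold change of Itga8 was 1.07 (SE 0.42, adjusted p = 0.245), the largest positive value among the 37 genes, and 0.43 without Elf5-positive library 2. On the scale of the epithelial markers it was -0.30, above the median of all genes there. Itga2b, the platelet alpha chain, was at 12.9 and 15.2 CPM against 15.01 to 21.5 CPM and did not pass (adjusted p = 0.617). The 8 platelet markers, of which Itga2b is one and gave most of the sum, totalled 16.5 to 18.4 CPM against 20.5 to 25.9 CPM. Of the 5 tested 0 passed, and 1 of the 8 was at 0 in all libraries.

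The beta partners of Itgav did not pass. Itgb3 was at 54.2 and 65.6 CPM against 66.6 to 85.7 CPM, and Itgb5 at 283.0 and 136.2 CPM against 214.4 to 441.8 CPM. Their log2 fold changes were -0.32 (SE 0.21) and -0.72 (SE 0.41), with adjusted p of 0.545 and 0.450. Itgb6, the epithelial beta chain that activates latent TGF-beta, was at 7.56 and 10.4 CPM against 2.44, 5.14, 12.1 and 3.81 CPM. Elf5-negative library 3 held the highest level of Itgb6, and the log2 fold change was 0.61 (SE 0.61, adjusted p = 0.710). Itgb8, the other activator, was at 60.6 and 139.3 CPM against 50.2, 24.05, 61.0 and 113.3 CPM. The highest 2 levels of Itgb8 were in Elf5-positive library 2 and Elf5-negative library 4, which share a title number and the code T2 (log2 fold change 0.69, SE 0.56, adjusted p = 0.631). On the scale of the epithelial markers Itgb6 and Itgb8 were at -0.67 and -0.69.

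**Figure D3:**
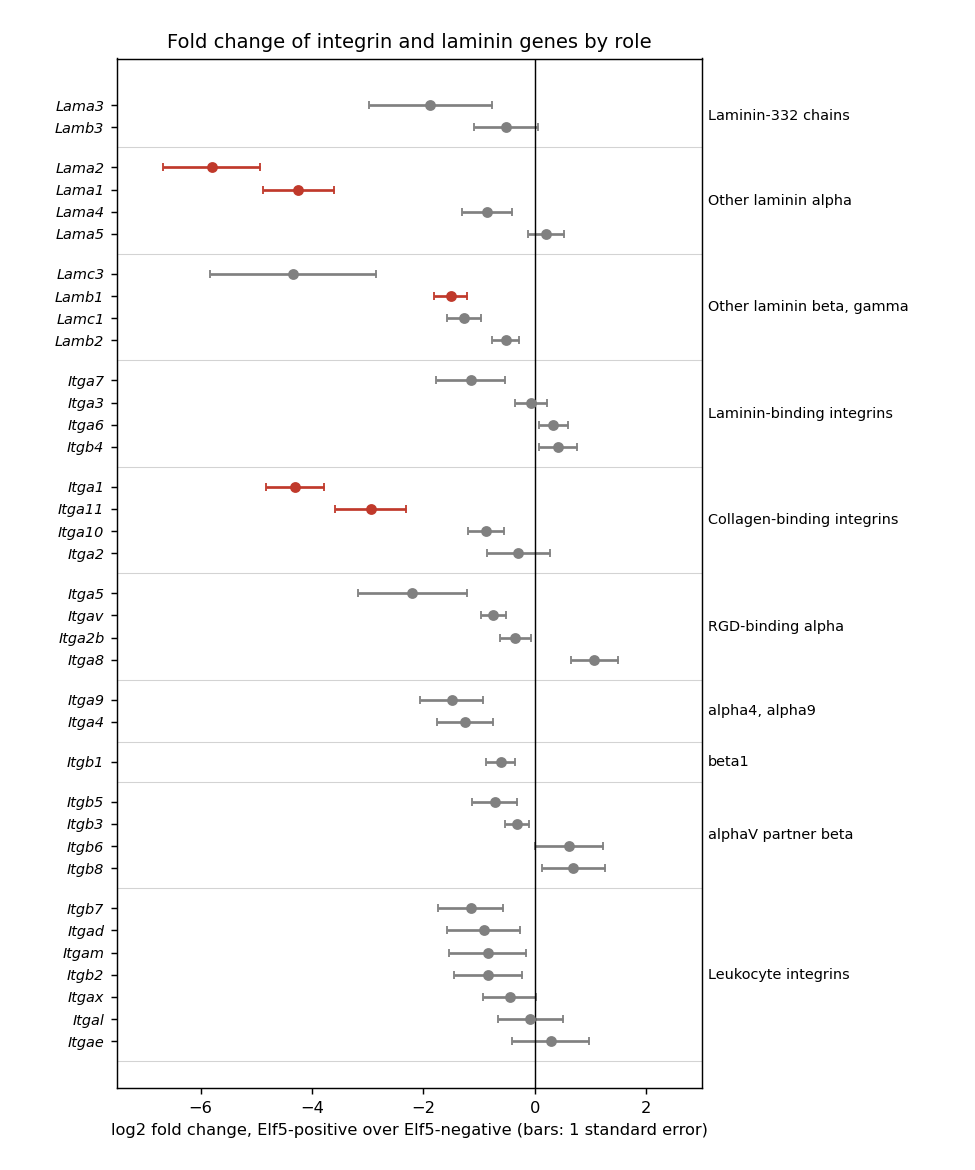
Log2 fold change, Elf5-positive over Elf5-negative (x axis; bars are 1 standard error), of 36 genes grouped by role; red points passed edgeR's test. Lama2 is lowest at -5.80 and Itga8 highest at 1.07 on the TMM scale; scaled to epithelial markers Itga8 was at -0.30, and the 6 other positive values also turned negative.

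Itga4 and Itga9, receptor chains for fibronectin, Vcam1 and tenascin, were low. Itga4 was at 1.55 and 1.43 CPM against 2.55 to 5.65 CPM, and Itga9 at 8.62 and 3.06 CPM against 10.9 to 26.9 CPM. Neither overlapped between groups and neither passed, with log2 fold changes of -1.25 (SE 0.50, adjusted p = 0.255) and -1.49 (SE 0.56, adjusted p = 0.220). The 7 leukocyte integrin genes (Itgad, Itgae, Itgal, Itgam, Itgax, Itgb2 and Itgb7) summed to 15.1 to 19.2 CPM against 14.5 to 47.8 CPM, and 0 of 7 passed in edgeR. Itgb2, the common beta chain of leukocyte integrins, was at 6.14 and 3.35 CPM against 15.8, 9.01, 4.78 and 4.32 CPM, highest in Elf5-negative library 1. The 12 leukocyte markers summed to 54.2 to 97.1 CPM against 59.5 to 170.3 CPM, and their median log2 fold change was -0.36. Itgad rested on 2 to 23 counts per library and shares exonic sequence with Cox6a2 on the other strand.

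Ratios of genes within a library do not depend on the scaling between libraries either. With 2 against 4 libraries the smallest p an exact permutation test can give is 0.0667, so none of the 4 ratios computed, 3 of which are given here, could pass. The log2 ratio of Itga6 to Itga5 counts was -0.33 and 2.78 in the Elf5-positive libraries and -1.82, -2.96, -1.12 and -0.78 in Elf5-negative libraries 1 to 4. Both Elf5-positive values lay above all others, by 2.89 on average (two-sided exact permutation test, p = 0.0667, adjusted over 4 ratios 0.178). This difference was 1.34 without Elf5-positive library 2 and 4.45 without Elf5-positive library 1. The log2 ratio of Itgb6 to Itgb1 was -6.55 and -6.35 against -8.96, -7.86, -6.65 and -8.23. These groups did not overlap (difference 1.47, exact permutation p = 0.133, adjusted 0.178). The log2 ratio of Itgb4 to Itgb1 was -1.93 and -3.12 against -4.04, -3.06, -3.64 and -3.38, and overlapped (difference 1.00, exact permutation p = 0.133, adjusted 0.178). This difference was 0.41 without Elf5-positive library 1 and 1.60 without Elf5-positive library 2.

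**Figure D4:**
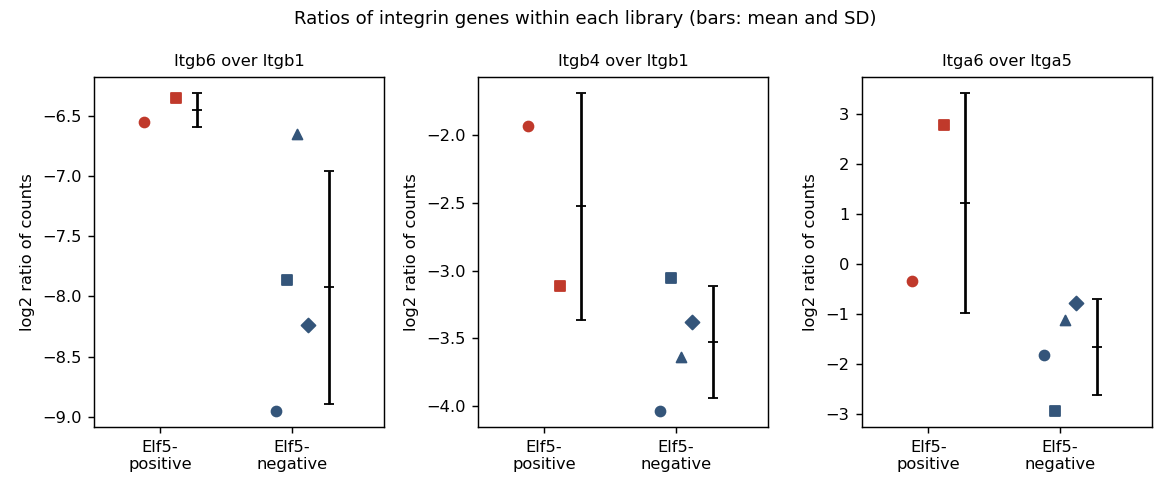
Log2 ratio of counts within each library for 3 pairs of genes, with the mean and SD beside the points (red, 2 Elf5-positive; blue, 4 Elf5-negative libraries). The groups separate for Itga6 over Itga5 (-0.33 and 2.78 against -2.96 to -0.78) and for Itgb6 over Itgb1, and overlap for Itgb4 over Itgb1.

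Other genes of the same structures were taken from lists of related genes. Of 18 other basement membrane genes 9 fell and 0 rose, with a median log2 fold change of -1.73. Nid1, nidogen, which links laminin to collagen IV, was at 16.6 and 11.2 CPM against 300.5 to 701.1 CPM (log2 fold change -5.08, SE 0.55, adjusted p = 0.0100). Nid2, Col15a1 and Smoc2 fell as well, with log2 fold changes of -3.04, -4.34 and -4.86. Of the 4 hemidesmosome partners of Itga6 and Itgb4, Col17a1, a transmembrane collagen, was at 1.73 and 1.01 CPM against 14.1 to 46.7 CPM and fell (log2 fold change -4.18, SE 0.64, adjusted p = 0.0157). Plec, Dst and Cd151 had log2 fold changes of -0.45, -1.23 and -0.19 and did not pass. Col17a1 is also a basal epithelial gene. Basal markers summed to 819.0 to 1152 CPM against 976.1 to 1876 CPM, and 5 of 12 fell (Krt5, Acta2, Mylk, Tagln and Snai2). Acta2 is on the pericyte and smooth muscle list as well. Of the 12, 9 had log2 fold changes below 0 and 3 above 0, namely Krt14 (0.52), Krt17 (0.27) and Dsg3 (0.65), none of which passed. Krt14 was at 562.0 and 532.9 CPM against 287.8 to 490.2 CPM, without overlap.

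Of 27 genes of integrin activation and focal adhesion 4 fell and 0 rose, with a median of -0.38. The 4 were the talin recruiter Apbb1ip (log2 fold change -3.77), the adaptor Lims2 (-4.02) and the tensins Tns1 (-1.98) and Tns3 (-1.10). Of the 27, 21 had log2 fold changes below 0 and 6 above 0. The general adaptors Tln1 (talin), Ilk and Vcl (vinculin), chosen after their values were seen, did not pass, at -0.55, -0.40 and -0.84. Their groups did not overlap, while those of Pxn (0.16), Ptk2 (0.27) and Src (-0.10) in the same list did. Tln1, Ilk and Vcl were among 9 of the 27 genes in which both Elf5-positive libraries lay below all Elf5-negative ones (14.8% of all genes tested). In 0 of the 27 both lay above, where 10.9% of all genes did. Of 16 other integrin ligands 5 fell and 0 rose, with a median of -1.02. Vtn (vitronectin), Tnc (tenascin C), Postn (periostin) and Vcam1 had log2 fold changes of -5.57, -2.70, -2.99 and -3.52, and Postn is on the fibroblast list as well. Fn1, fibronectin, was at 3515 and 3950 CPM against 8434 to 13086 CPM and did not pass (log2 fold change -1.53, SE 0.37, adjusted p = 0.0650). Of 7 other laminin receptors the syndecan Sdc2 fell (-2.86). Sdc4 and Bcam, a syndecan and a Lutheran-type laminin receptor, lay above all Elf5-negative libraries in both Elf5-positive ones but did not pass (0.89 and 0.52, adjusted p = 0.0894 and 0.273).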

How the data were processed

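Per the submitters' processing notes, the authors quantified reads with Salmon on GRCm38.p5 and deposited estimated counts (expected counts) per Ensembl gene. Salmon's version, annotation release and strand setting were not given in the sources used here. Deposited values were whole, so rounding changed none. IDs were matched to symbols without their version suffix (52220 of 52325). Coordinates and exon union lengths came from GENCODE M21 (GRCm38).

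Counts were filtered with filterByExpr by group, which left 20684 genes, scaled with TMM factors and compared with edgeR's quasi-likelihood test without a block (edgeR 4.0.16 in R 4.3.3, beside DESeq2 1.42.0 and limma 3.58.1; matplotlib 3.10.9 for figures). P-values were adjusted over all genes tested, and standard errors are the log2 fold change over the root of F. Levels per kb use exon union length, and isoforms of other length would shift them. Ratios used counts plus 0.5. Genes to be named were the integrin and laminin genes, and from each related list up to 4 of smallest p. Beyond these, Tln1, Ilk, Vcl, Fn1, Pxn, Ptk2, Src and the named basal markers were chosen after their values were seen. The genes and lists were chosen with earlier results of these data known. Counts cover all 37 genes, and the values of 1 of them are not reported here. The test was tried on simulated counts. Alternatives were other scalings, filters, dispersions and tools, thinning, blocks, and libraries left out.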

Additional observations from a re-analysis of the deposited data

Results flagged for a closer look

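Among 41 values checked in the 4 Elf5-negative libraries (37 genes and 4 ratios), 1 had a library far from the other 3, and chance gives about 1 in 20. Elf5-negative library 1 held 378.5 CPM of Lamb2 and the other Elf5-negative libraries 270.8 to 288.9 CPM, a gap of 0.832 of the whole range.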

How the results depend on the processing

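Of 716 values of single genes under 20 other settings, 627 kept their direction and their side of the threshold, 22 no longer passed, 38 newly passed and 29 changed sign. The scaling to epithelial markers, where 55.9% of all genes passed as lower, gave 23 of the 38 and 7 of the 29. The 22 came from settings with fewer libraries. None of the 37 genes passed as higher in edgeR, DESeq2 or limma-voom under these settings except Itga8 with the title number as a replicate block, all libraries (1 higher, 6 lower, log2 fold change 1.04, adjusted p = 0.0472; 1.22% and 4.89% of all genes) and with that block among T2 libraries (1 higher, 9 lower; Itga8 at 1.15; 2.83% and 7.05% of all genes). The first block added Lamc1 to the lower genes, and the T2 block Lamc1, Itga5, Lama3 and Lamc3. The block rests on 2 title numbers, and differences between libraries of the 2 numbers correlated across genes at 0.71 between the T2 sorts and at 0.075 with the T1 libraries; the labels do not say what the number marks. In the T2 libraries alone, without the block, 6 of the integrin and laminin genes were lower and 0 higher at an unadjusted p under 0.05. The share of all genes at that unadjusted p was not computed. Counts of lower genes were 32 when scaled to epithelial markers (55.9% of all genes), 9 with DESeq2 (8.52%) and 0 without Elf5-negative libraries 1 and 2 (0.372%). Counts were also 0 in the T2 libraries alone, where edgeR called 0 of 19395 genes. They ran from 1 to 5 with single libraries left out, where 0 rose. Without Elf5-positive library 1 (2.7% of all genes lower) the 5 held Itga7 in place of Lamb1. With the other 8 settings the count was 5 to 7. It was 7 without the low-count filter, where 1331 of 35394 genes were lower, and 6 with limma-voom (4.32% of all genes). In the remaining settings it was 5, where 686 to 828 genes were lower out of 15694 to 20684 tested. With single libraries left out the differences of the log2 ratios ran from 1.13 to 1.90 (Itgb6 over Itgb1), 0.41 to 1.60 (Itgb4 over Itgb1) and 1.34 to 4.45 (Itga6 over Itga5); within title numbers (replicate block, T2) they averaged 1.59, 0.69 and 3.09.

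Log2 fold changes that changed sign were, when scaled to epithelial markers, Itga6 -1.06, Itga8 -0.30, Itgae -1.14, Itgb4 -1.05, Itgb6 -0.67, Itgb8 -0.69 and Lama5 -1.27. In the T2 libraries they were Itga2 0.010, Itgal 0.15 and Lama5 -0.082, and with the block 0.0090, 0.16 and -0.11. Itgal was at 0.10 with limma-voom, 0.22 when thinned, and 0.39 without Elf5-negative library 1. Without Elf5-positive library 1, Itgal, Itgb4 and Lama5 were at 0.060, -0.12 and -0.12. Without Elf5-positive library 2, Itga2, Itga3, Itgae and Itgb8 were at 0.25, 0.26, -0.50 and -0.032. Without Elf5-negative library 3, Itga2 was at 0.020, and without library 4 Itga3 was at 0.025. Without Elf5-negative libraries 1 and 2, Itgal, Itgam, Itgax and Itgb2 were at 0.40, 0.26, 0.087 and 0.071. Over the single leave-outs Itga2 ran from -1.21 to 0.25, Itga3 from -0.49 to 0.26, Itgae from -0.50 to 0.80, Itgal from -0.32 to 0.39, Itgb4 from -0.12 to 0.80, Itgb8 from -0.032 to 1.17 and Lama5 from -0.12 to 0.47. None of these genes passed in the comparison of all libraries, and the cause was not tested. The smallest library, Elf5-negative 4, limits low genes such as Itgad.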

Other observations

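The 2 Elf5-positive libraries differed from each other in several of these genes. On the log2(CPM + 0.5) scale 12 of the 37 genes differed by more than 2-fold between them. The share of all genes that did so was not computed. Library 1 held more Itga5 (143.7 against 18.3 CPM), Itga7 (30.7 against 5.57 CPM) and Lama3 (48.1 against 10.4 CPM), and library 2 more Lama4 (158.4 against 63.0 CPM), Itgb8 (139.3 against 60.6 CPM) and Itga8 (73.6 against 34.9 CPM). In 27 of the 37 genes Elf5-negative libraries 2 and 4, the T2 libraries with the same 2 title numbers, differed in the same direction. Itga5 was at 819.8 and 130.1 CPM there, Lama3 at 116.4 and 44.8 CPM, and Itgb8 at 24.05 and 113.3 CPM. The share of all genes with the same direction was not computed either. Over all genes tested the same differences correlated at 0.71, so such agreement was not particular to the integrin and laminin genes. No test was made, since the values chose these genes.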
